A study of Homo sapiens with 9 samples.

Results

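The chromatin around 9 genes was described: the AP-1 subunits FOS, FOSL1, FOSL2, JUN and JUNB, the coactivator YAP1, its DNA-binding partner TEAD1, and the YAP-TEAD target genes CCN1 and CCN2. Each gene was given a window on hg19 meant to hold the gene and its flanks. The 9 windows measured 50 to 370 kb, and the members are the 86 regions of accessible chromatin that overlapped them, out of 94773 regions in all. ATAC-seq, in which the transposase Tn5 cuts open chromatin, was applied to 9 libraries of VCaP, a human prostate cancer line. There were 3 groups of 3 libraries: VCaP16, an enzalutamide-resistant VCaP line grown in 16 µM enzalutamide; VCaP_ENZ, VCaP cells given 10 µM enzalutamide for 96 h; and VCaP_DMSO, VCaP cells given the solvent. Enzalutamide blocks the androgen receptor. The lists hold no expression values, so the line was not checked against its markers. Every library carries the genotype label WT, and the medium was DMEM with 10% FBS throughout. There is no VCaP16 library without the drug, so line and drug cannot be told apart against VCaP_DMSO, and the doses of the 2 drug groups differ. The labels do not say whether VCaP16 is 1 clone or whether replicates were separate cultures, so a p-value measures only the spread between these libraries, which may be technical.

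AP-1 is a dimer of a FOS protein with a JUN protein, or of JUN proteins with each other. Its genes are fast to respond to growth factors and stress, and JUN and the FOS genes are partly under AP-1's own control. YAP1 is the coactivator held back by the Hippo kinases: once in the nucleus it binds TEAD proteins, which carry it to DNA, and AP-1 often sits at the same enhancers. CCN1 and CCN2, which encode secreted matrix-associated proteins, are the standard readouts of YAP-TEAD activity. In prostate cancer both systems are studied as routes to growth when the androgen receptor is blocked.

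The promoters show where these factors' letters stand in the genes' own start regions. RefSeq held a promoter for 6 of the 9 members (FOS, FOSL2, JUN, JUNB, YAP1 and CCN2), from 250 bases before to 50 bases after the start on GRCh38.p14. Both strands were searched for the AP-1 letters TGANTCA, the related letters TGACNTCA and the TEAD letters GGAATG; none of these can lie within another. The 4 promoters with a match are printed 5′ to 3′ on the gene's strand, with the matched letters in capitals.
CCN2 promoter, chr6:131951323-131951622, minus strand: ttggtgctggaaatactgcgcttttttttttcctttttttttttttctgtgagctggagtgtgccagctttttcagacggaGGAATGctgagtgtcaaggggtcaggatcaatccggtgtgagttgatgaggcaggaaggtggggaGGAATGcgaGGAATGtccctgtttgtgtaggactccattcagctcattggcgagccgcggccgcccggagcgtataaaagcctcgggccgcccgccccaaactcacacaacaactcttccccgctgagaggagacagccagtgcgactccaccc
YAP1 promoter, chr11:102110197-102110496, plus strand: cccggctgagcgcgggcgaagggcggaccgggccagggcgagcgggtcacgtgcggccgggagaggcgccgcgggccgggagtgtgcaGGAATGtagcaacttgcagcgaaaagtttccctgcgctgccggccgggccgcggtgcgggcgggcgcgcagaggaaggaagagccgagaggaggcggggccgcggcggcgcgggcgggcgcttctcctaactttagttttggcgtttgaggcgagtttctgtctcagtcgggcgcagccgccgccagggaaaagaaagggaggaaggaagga
JUN promoter, chr1:58783998-58784297, minus strand: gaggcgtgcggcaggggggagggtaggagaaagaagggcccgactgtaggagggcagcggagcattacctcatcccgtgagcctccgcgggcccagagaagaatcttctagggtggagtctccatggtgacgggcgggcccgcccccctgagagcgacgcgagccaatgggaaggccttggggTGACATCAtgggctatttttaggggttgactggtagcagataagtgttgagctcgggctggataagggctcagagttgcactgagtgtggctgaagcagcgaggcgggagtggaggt
FOSL2 promoter, chr2:28392608-28392907, plus strand: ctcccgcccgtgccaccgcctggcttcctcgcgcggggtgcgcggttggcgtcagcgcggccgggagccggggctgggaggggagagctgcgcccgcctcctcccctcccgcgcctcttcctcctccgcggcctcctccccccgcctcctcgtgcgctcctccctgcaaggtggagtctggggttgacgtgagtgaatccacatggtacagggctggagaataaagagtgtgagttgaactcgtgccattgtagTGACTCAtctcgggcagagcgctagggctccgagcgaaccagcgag
CCN2 carried GGAATG 3 times, the matches beginning 169, 104 and 95 bases before the start. YAP1 carried it once, 162 bases before its start. Of 35116 RefSeq promoters of this length, 14.0% held at least 1 GGAATG. JUN held TGACATCA 67 bases before its start, a form that 7.72% of promoters matched, and FOSL2 held TGACTCA just after its start, a form that 7.71% matched. A match is a description of letters, not of a bound site. The peak lists are on hg19, and no hg19 annotation was used here, so no promoter is placed in a region below and regions are given by their coordinates. Genes next to the members in RefSeq order, such as TMED10 and JDP2 beside FOS or HOOK2 and PRDX2 beside JUNB, may reach into a window, so a region is not assigned to the gene that names its window.

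The deposited data are 1 peak list per library, with 53646 to 68921 peaks on chromosomes 1 to 22 and X. The lists give a score per peak and no read number, which leaves library depth unknown. Peaks of all libraries that shared at least 1 bp were merged into regions, and a region was called in a library if that library had a peak in it. The score is the authors' own value, and it served to rank peaks within a list and, in an alternative setting, to keep those of at least 5. A position of 5% from the top means that 5% of the peaks of that list scored as high or higher. VCaP16 replicate 3 had the longest list, at 68921 peaks covering 36.4 Mb, against 25.9 to 32.5 Mb in the other 8 libraries.

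Of the 86 regions, 42 were called in all 9 libraries, which is 48.8%, against 34.9% of all regions. At the other end, 15 were called in 1 library, which is 17.4%, against 22.6% of all regions. The remaining 29 were called in 2 to 8 libraries. The median width was 596 bp for the members and 501 bp for all regions, and the median position in the lists was 58.9% from the top for the members and 70.2% for all regions. Among regions called in all 9 libraries the members were much like the rest, with a median width of 848 bp against 838 bp and a median position of 32.9% against 30.2%. The 44 members called in 1 to 8 libraries were narrower and weaker, with a median width of 302 bp and a median position of 84.6%. Merging joins the peaks of all calling libraries, so regions with fewer calls tend to be narrower by construction. The same medians were not computed for all regions called in 1 to 8 libraries. The 15 single-library members ran from 156 to 280 bp, and VCaP_DMSO replicate 2 held the most, at 4.

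**Figure D1:**
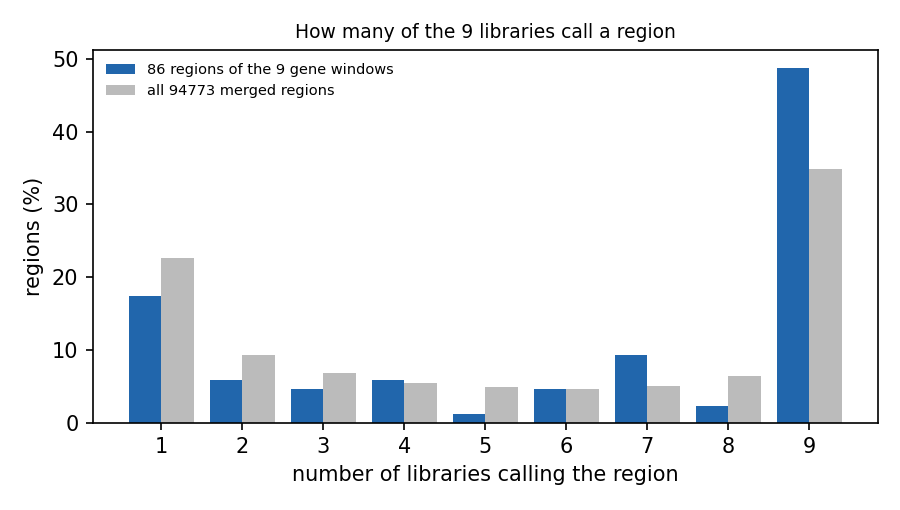
Share of regions, in percent, by the number of libraries that called them, for the 86 regions of the 9 gene windows and for all 94773 regions. The bar at 9 libraries stands at 48.8% for the gene windows and 34.9% for all regions.

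Grouped by role, the share of regions called in every library was as follows. The CCN1 and CCN2 windows had 8 of 12 regions in all 9 libraries (66.7%), the JUN family windows 9 of 17 (52.9%) and the FOS family windows 13 of 26 (50.0%). The YAP1 and TEAD1 windows together had 12 of 31 (38.7%), closest to the 34.9% of all regions. Genes of 1 role differed as widely: the share was 85.7% for CCN1 and 40.0% for CCN2, 85.7% for FOSL1 and 33.3% for FOS, and 55.6% for YAP1 and 31.8% for TEAD1. These shares have no test, because regions of 1 window share their libraries.

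**Figure D2:**
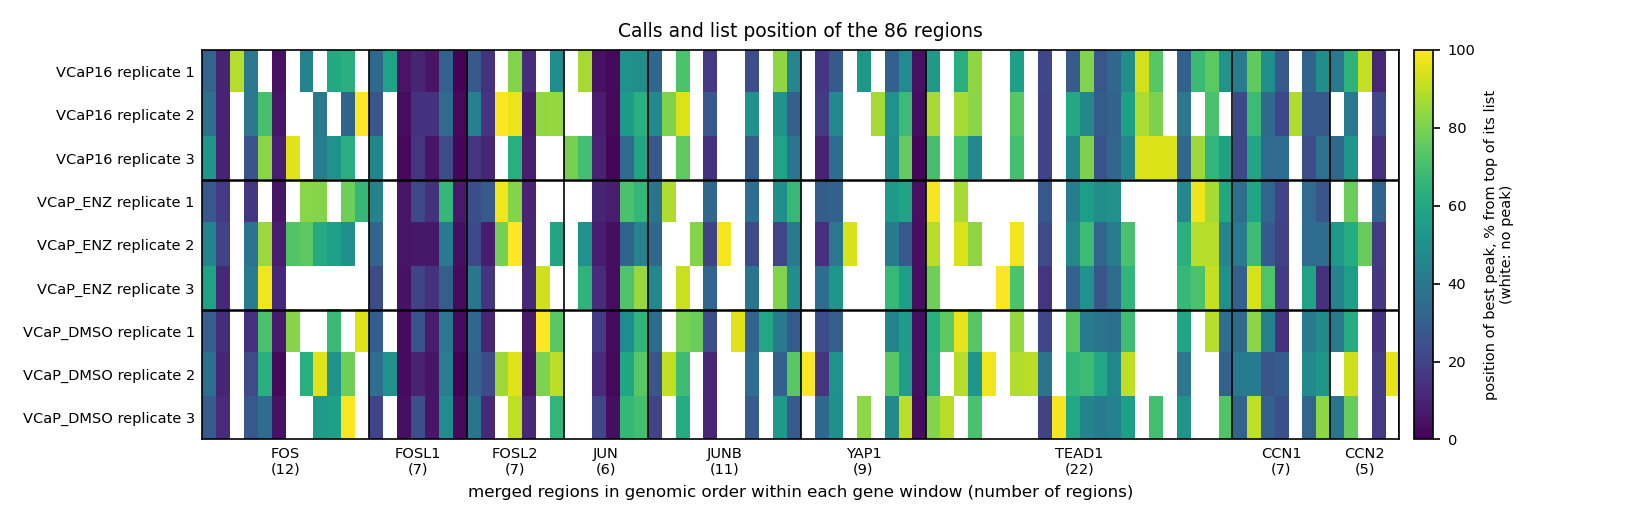
Each column is 1 of the 86 regions in genomic order within its window, each row a library, and the colour gives the position of its best peak in that library's list, in percent from the top (white where there was no peak). Dark columns that run through all 9 rows, such as those of FOSL1 and JUN, are shared strong regions, and the white cells are most numerous in the TEAD1 window.

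FOS encodes the founding FOS protein, an immediate-early gene product. Its 100 kb window on chromosome 14 (75.70 to 75.80 Mb) held 12 regions, 4 of them in all 9 libraries, 7 in 2 to 8 and 1 in a single library. Its best-placed region, chr14:75760463-75761089 (627 bp), stood 4.62, 5.31 and 7.61% from the top in VCaP16, 5.72, 8.12 and 11.4% in VCaP_ENZ, and 7.11, 2.33 and 4.71% in VCaP_DMSO. The 3 groups overlapped there. The widest region of all 86, chr14:75743747-75746248 (2502 bp), was called in every library by 1 to 3 peaks, with positions from 13.6 to 41.9%. Peaks covered 4515, 5394 and 7002 bp of the window in VCaP16, 3451, 5519 and 3035 bp in VCaP_ENZ, and 5528, 5667 and 5291 bp in VCaP_DMSO. VCaP_ENZ replicates 1 and 3 were the lowest of the 9, while VCaP_ENZ replicate 2 lay among the others.

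FOSL1, which encodes the FOS relative FRA1, had the highest share of regions in all 9 libraries among the AP-1 genes, at 85.7%. Its 50 kb window on chromosome 11 (65.64 to 65.69 Mb) held 7 regions, 6 of them in all 9 libraries. The region chr11:65686530-65688136 (1607 bp) was both the widest there and the best placed of the 86, with a median position of 2.37%. It stood at 1.12, 1.98 and 1.21% in VCaP16, at 7.02, 3.95 and 3.06% in VCaP_ENZ, and at 2.95, 0.259 and 2.37% in VCaP_DMSO. The VCaP16 positions were all above those of VCaP_ENZ, and VCaP_DMSO replicate 2 was the highest of the 9. Since ranks in lists of different length show no change, these positions only place the region within each list. How often positions separate groups over all regions was not counted. Coverage was 4973, 4933 and 5152 bp in VCaP16, 4759, 5165 and 4257 bp in VCaP_ENZ, and 5046, 5245 and 4681 bp in VCaP_DMSO, with all groups overlapping.

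FOSL2 encodes FRA2, the other FOS relative of the set. Its 120 kb window on chromosome 2 (28.57 to 28.69 Mb) held 7 regions, 3 of them in all 9 libraries and 4 in 2 to 8. The widest and best-placed region, chr2:28615109-28616415 (1307 bp), had positions from 5.13 to 13.0% over the 9 libraries. Peaks covered 2354, 3047 and 2339 bp in VCaP16, 2035, 2772 and 1613 bp in VCaP_ENZ, and 2739, 3282 and 2161 bp in VCaP_DMSO. Replicate 2 was the highest of its group in each of the 3 groups.

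JUN encodes the central AP-1 partner. Its 100 kb window on chromosome 1 (59.20 to 59.30 Mb) held 6 regions, 4 of them in all 9 libraries. The region chr1:59248354-59250172 (1819 bp) was the widest and best placed. It stood between 1.66 and 2.17% in VCaP16, at 7.43, 3.60 and 3.21% in VCaP_ENZ, and at 2.95, 2.24 and 3.54% in VCaP_DMSO. VCaP16 had the highest 3 positions and VCaP_ENZ replicate 1 the lowest, but the share of all regions with such a separation was not counted. Regions called numbered 5, 4 and 6 in VCaP16, 4, 5 and 5 in VCaP_ENZ, and 4 in each VCaP_DMSO library. The regions called beyond those 4 included chr1:59218835-59219116 (282 bp), a region outside the naming rule that was singled out after its values were seen. It was called in 2 of 3 VCaP16, 2 of 3 VCaP_ENZ and 0 of 3 VCaP_DMSO libraries, at a median position of 67.7%. Fisher's exact test of its calls, VCaP16 against the 6 VCaP libraries, gave p = 0.524. Of all regions, 5.5% were called in at least 2 of 3 VCaP16 and no VCaP_DMSO libraries. For VCaP_ENZ against VCaP_DMSO that share was 2.90%. The share of regions with both patterns was not counted. Covered length did not separate the groups: 2950, 3473 and 3820 bp in VCaP16, 3030, 3458 and 3394 bp in VCaP_ENZ, and 3796, 3408 and 3154 bp in VCaP_DMSO.

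JUNB encodes a JUN relative that can dampen JUN in some settings. Its 50 kb window on chromosome 19 (12.88 to 12.93 Mb) was the densest of the 9, with 11 regions, or 22 per 100 kb. Of these, 5 were in all 9 libraries and 3 in a single library. The widest, chr19:12885636-12886775 (1140 bp), had a median position of 33.3%, and the best placed, chr19:12902122-12903053 (932 bp), one of 19.3%. Peaks covered 4364, 4183 and 4391 bp in VCaP16, 4115, 4574 and 3603 bp in VCaP_ENZ, and 5331, 4565 and 4145 bp in VCaP_DMSO. VCaP_DMSO replicate 1 was the highest, with 9 regions called where the other libraries had 6 or 7.

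YAP1 had few regions for its length: 9 in a 220 kb window on chromosome 11 (101.93 to 102.15 Mb), or 4.09 per 100 kb, the lowest density of the 9. Of these, 5 were in all 9 libraries and 3 in a single library. The region chr11:102139073-102140078 (1006 bp) was placed from 1.94 to 4.47% in every library, a narrow range. The widest region, chr11:101980550-101981825 (1276 bp), stood at 15.7, 16.8 and 9.44% in VCaP16, at 29.3, 13.9 and 36.0% in VCaP_ENZ, and at 23.5, 15.5 and 33.6% in VCaP_DMSO. Peaks covered 2958, 2971 and 3165 bp of the window in VCaP16, 2662, 2955 and 2201 bp in VCaP_ENZ, and 2722, 3350 and 2536 bp in VCaP_DMSO. Every VCaP16 library lay above every VCaP_ENZ library, by 3 bp at the closest, and VCaP_DMSO ran from below to above the VCaP16 range.

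TEAD1, one of the DNA-binding partners of YAP1, had the lowest share of regions in all 9 libraries among the 9 windows, at 31.8%. Its 370 kb window on chromosome 11 (12.65 to 13.02 Mb) held 22 regions, of which 7 were in all 9 libraries, 10 in 2 to 8 and 5 in a single library. Regions called numbered 16, 14 and 17 in VCaP16, 11, 14 and 13 in VCaP_ENZ, and 14, 14 and 13 in VCaP_DMSO. The VCaP16 mean was 15.7 ± 1.53 (SD, n = 3) against 13.2 ± 1.17 in the 6 VCaP libraries, a difference of 2.50 regions (two-sided exact permutation test over 84 splits, p = 0.0595). Peaks covered 6800, 6359 and 7811 bp in VCaP16, 5013, 6694 and 5782 bp in VCaP_ENZ, and 6242, 6156 and 5814 bp in VCaP_DMSO. All 3 VCaP16 libraries were above all 3 VCaP_DMSO libraries, and VCaP_ENZ replicate 2 lay within the VCaP16 range. The means were 6990 ± 744 bp in VCaP16 and 5950.2 ± 567 bp in the 6 VCaP libraries (SD), a difference of 1039.8 bp (exact permutation p = 0.0357). The p was above 0.05 when any library other than VCaP16 replicate 2 or VCaP_ENZ replicate 2 was left out. Without VCaP16 replicate 3, the longest list, the difference was 629 bp (exact p = 0.214), and per Mb covered by the library's list it was 15.2 bp (exact p = 0.179). With the same number of best peaks, 53646, taken from every list, coverage was 6564, 6359 and 6135 bp in VCaP16, 5013, 4854 and 5782 bp in VCaP_ENZ, and 5752, 5897 and 5814 bp in VCaP_DMSO (exact p = 0.0476 for VCaP16 against the rest). The p under 0.05 was reached in 1 of 72 unadjusted window tests (9 windows, 4 comparisons, 2 measures). Only the 18 tests of 3 against 6 could reach it, since 3 against 3 cannot go below 0.1. Among all 23748 stretches of 100 kb with a peak, 7.86% were higher in VCaP16 with an exact p under 0.05 and 0.750% were lower. A count of 1 window in 9 is near that share, and the stretches are shorter than the TEAD1 window. The smallest p after Benjamini-Hochberg adjustment over these stretches was 0.403.

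Individual TEAD1 regions carried the group patterns. The widest, chr11:12875059-12876883 (1825 bp), and the best placed, chr11:12824116-12824637 (522 bp, median position 20.9%), were called in every library. The region chr11:12915555-12916058 (504 bp) was called in 3 of 3 VCaP16, 0 of 3 VCaP_ENZ and 0 of 3 VCaP_DMSO libraries. Its VCaP16 peaks were weak, at 93.1, 87.7 and 94.9% from the top of their lists with scores of 3.78, 4.87 and 3.60, near the lowest score of about 2 in each list. Fisher's exact test of its calls, VCaP16 against the 6 VCaP libraries, gave p = 0.0119, the smallest this design allows, and 1.00 after Benjamini-Hochberg adjustment over all 94773 regions. With peaks scoring at least 5, no library called it, and with lists of equal length 1 VCaP16 library did. Its neighbour chr11:12936139-12936523 (385 bp) was called in 3 VCaP16, 0 VCaP_ENZ and 1 VCaP_DMSO library (Fisher's exact p = 0.0476 before and 1.00 after adjustment). That p was above 0.05 when any library other than VCaP_DMSO replicate 3 was left out. It stood at 74.0, 80.1 and 94.9% in VCaP16 and at 69.6% in VCaP_DMSO replicate 3, so its best-placed peak was in VCaP_DMSO. The region chr11:12995148-12995720 (573 bp) was called in 2 VCaP16, 3 VCaP_ENZ and 0 VCaP_DMSO libraries, at 68.1 and 85.2% in VCaP16 and at 97.3, 88.8 and 71.6% in VCaP_ENZ. Between 2 groups of 3, an exact test cannot go below p = 0.1.

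A TEAD1 region that the score threshold changed is chr11:13001800-13002373 (574 bp), also named after its values were seen. It was called in 3 VCaP16, 3 VCaP_ENZ and 1 VCaP_DMSO library, with scores of 6.61, 7.57 and 9.24 in VCaP16, 4.92, 4.81 and 4.32 in VCaP_ENZ, and 4.96 in VCaP_DMSO replicate 1, given here only for their side of the threshold of 5. With peaks scoring at least 5 it was called in 3 of 3 VCaP16 libraries and 0 of the 6 VCaP libraries, as was a second TEAD1 region, chr11:12715204-12715942 (739 bp). With the full lists that second region was called in 3 VCaP16, 2 VCaP_ENZ and 2 VCaP_DMSO libraries. Its scores were 8.82, 5.02 and 7.88 in VCaP16, 4.92 and 3.79 in VCaP_ENZ, and 3.34 and 4.41 in VCaP_DMSO. For both regions the pattern arose only with the cut at 5. Under that threshold regions called in the TEAD1 window numbered 15, 13 and 14 in VCaP16, 7, 9 and 11 in VCaP_ENZ, and 12, 9 and 11 in VCaP_DMSO, with no overlap between VCaP16 and the rest (difference 4.17, exact p = 0.0238). Covered length differed by 1636 bp (exact p = 0.0119). At this threshold 0.642% of all regions were in every VCaP16 and no VCaP library. The share of 100 kb stretches with a low p was computed on the full lists only, so the window values have no background at this threshold. Scores of different lists are not on a common depth, so this threshold need not cut each library at the same strength.

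**Figure D3:**
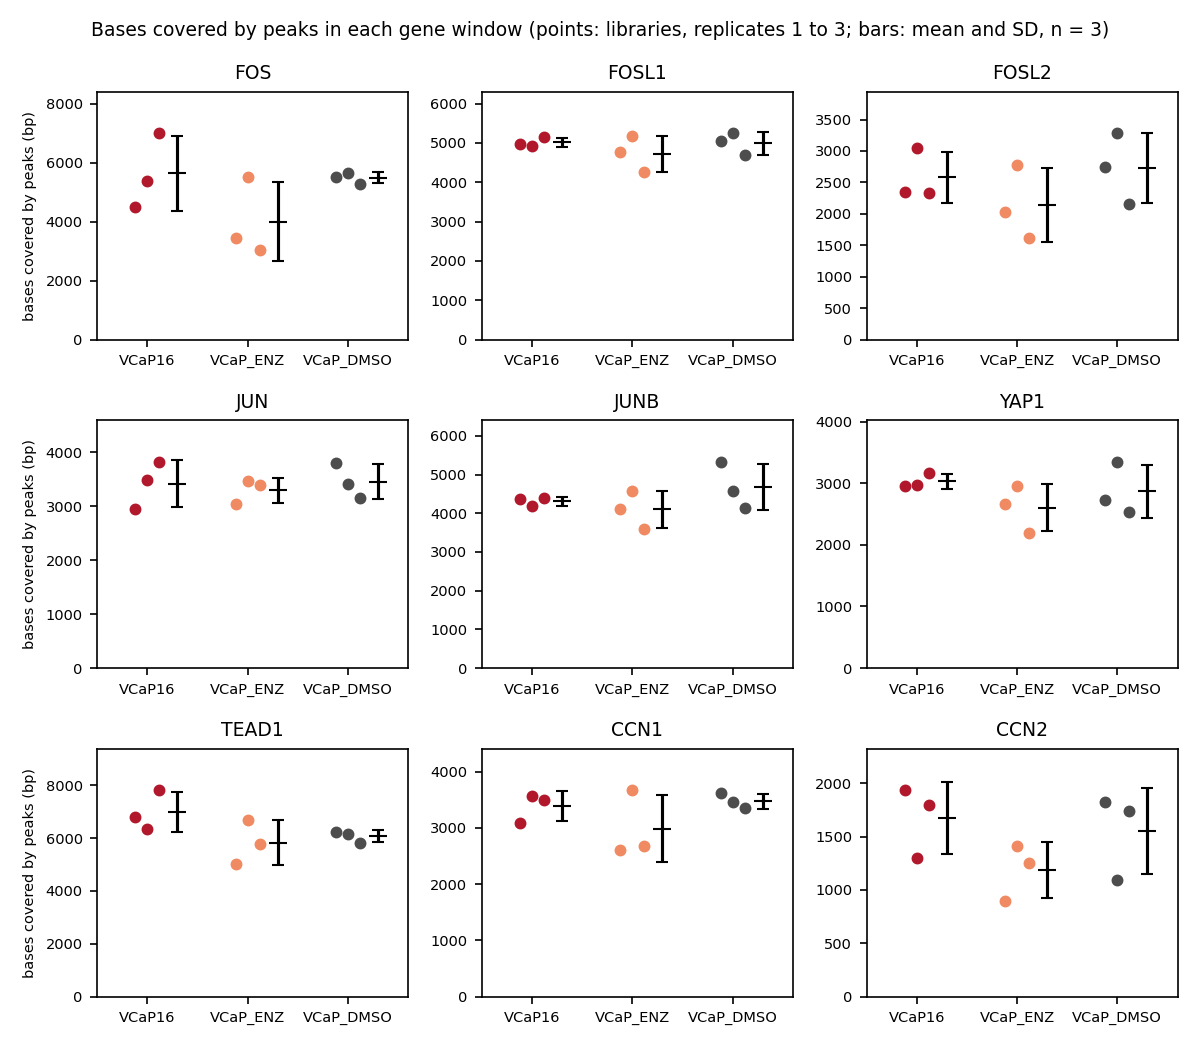
Bases covered by peaks (bp, axis from 0) in each window, with a point per library and the mean and SD (n = 3) beside them. In the TEAD1 panel the VCaP16 points lie at 6359 to 7811 bp, above the VCaP_DMSO points at 5814 to 6242 bp; in most other panels the 3 groups overlap.

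CCN1, also called CYR61, had 7 regions in a 100 kb window on chromosome 1 (86 to 86.1 Mb), 6 of them in all 9 libraries. The seventh was called in VCaP16 replicate 2, so every other library called 6. The widest, chr1:86094317-86095478 (1162 bp), stood at 26.5, 35.7 and 13.9% in VCaP_ENZ and at 47.9, 53.0 and 83.0% in VCaP_DMSO, and VCaP16 lay between 27.8 and 50%. These positions place it within each list and show no change, and similar separations over all regions were not counted. The best placed, chr1:86047767-86048351 (585 bp), ranged from 13.7 to 35.2%. Coverage was 3089, 3570 and 3503 bp in VCaP16, 2613, 3669 and 2681 bp in VCaP_ENZ, and 3621, 3452 and 3356 bp in VCaP_DMSO, with overlap between groups.

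CCN2, also called CTGF, had 5 regions in a 100 kb window on chromosome 6 (132.22 to 132.32 Mb), 2 of them in all 9 libraries. The widest and best placed, chr6:132271035-132272063 (1029 bp), ranged from 10.6% in VCaP16 replicate 1 to 31.8% in VCaP_ENZ replicate 1, with the other 7 libraries in between. Peaks covered 1934, 1295 and 1795 bp of the window in VCaP16, 894, 1411 and 1250 bp in VCaP_ENZ, and 1827, 1094 and 1736 bp in VCaP_DMSO. The least covered library was VCaP_ENZ replicate 1, which called 2 regions.

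**Figure D4:**
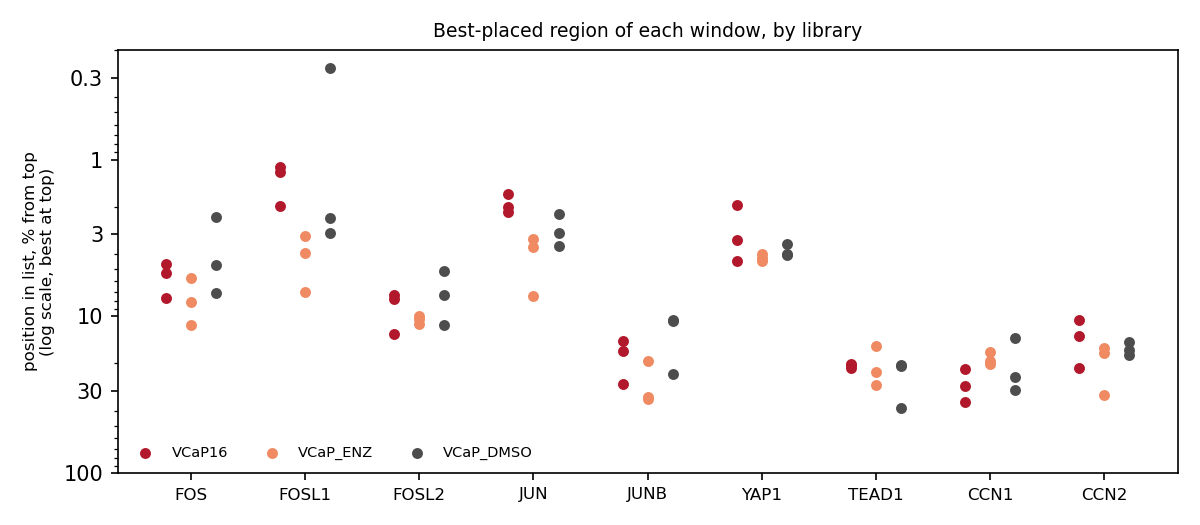
Position of the best-placed region of each window in every library, in percent from the top of its list (log scale, best at the top). FOSL1, JUN and YAP1 have the best-placed regions, with medians of 2.37, 2.95 and 4.01%, and the groups overlap in most windows.

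Each library called between 53 and 64 of the 86 regions: 63, 61 and 62 in VCaP16, 53, 64 and 53 in VCaP_ENZ, and 60, 63 and 57 in VCaP_DMSO. The mean share called was 72.1 ± 1.16% in VCaP16, 65.9 ± 7.38% in VCaP_ENZ and 69.8 ± 3.49% in VCaP_DMSO (SD, n = 3 each). Of all 94773 regions the mean share called was 63.4% in VCaP16, 58.1% in VCaP_ENZ and 57.2% in VCaP_DMSO. Whole regions rarely separated the groups. VCaP16 against VCaP_DMSO gave 1 member called in 3 of 3 VCaP16 and 0 of 3 VCaP_DMSO libraries, the TEAD1 region described above. That is 1.16% of the members, against 1.63% of all regions, and 0 members showed the reverse, against 0.532%. VCaP_ENZ against VCaP_DMSO gave 1 member (1.16%, against 0.653% of all regions), also in TEAD1, and 0 of the reverse (0.557%). VCaP16 against VCaP_ENZ gave 2 members (2.33%, against 1.13%), both in TEAD1, and 0 of the reverse (0.410%). VCaP16 against all 6 VCaP libraries gave 1 member (1.16%, against 0.549%) and 0 of the reverse (0.0876%). Counts of 0 to 2 regions are near these backgrounds. Fisher's exact test over all regions found 2 members called more often in VCaP16 with p under 0.05 before adjustment, when 1.33% of all regions did, and 0 called less often (0.296%). After Benjamini-Hochberg adjustment 0 of 94773 regions passed, the members included.

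**Figure D5:**
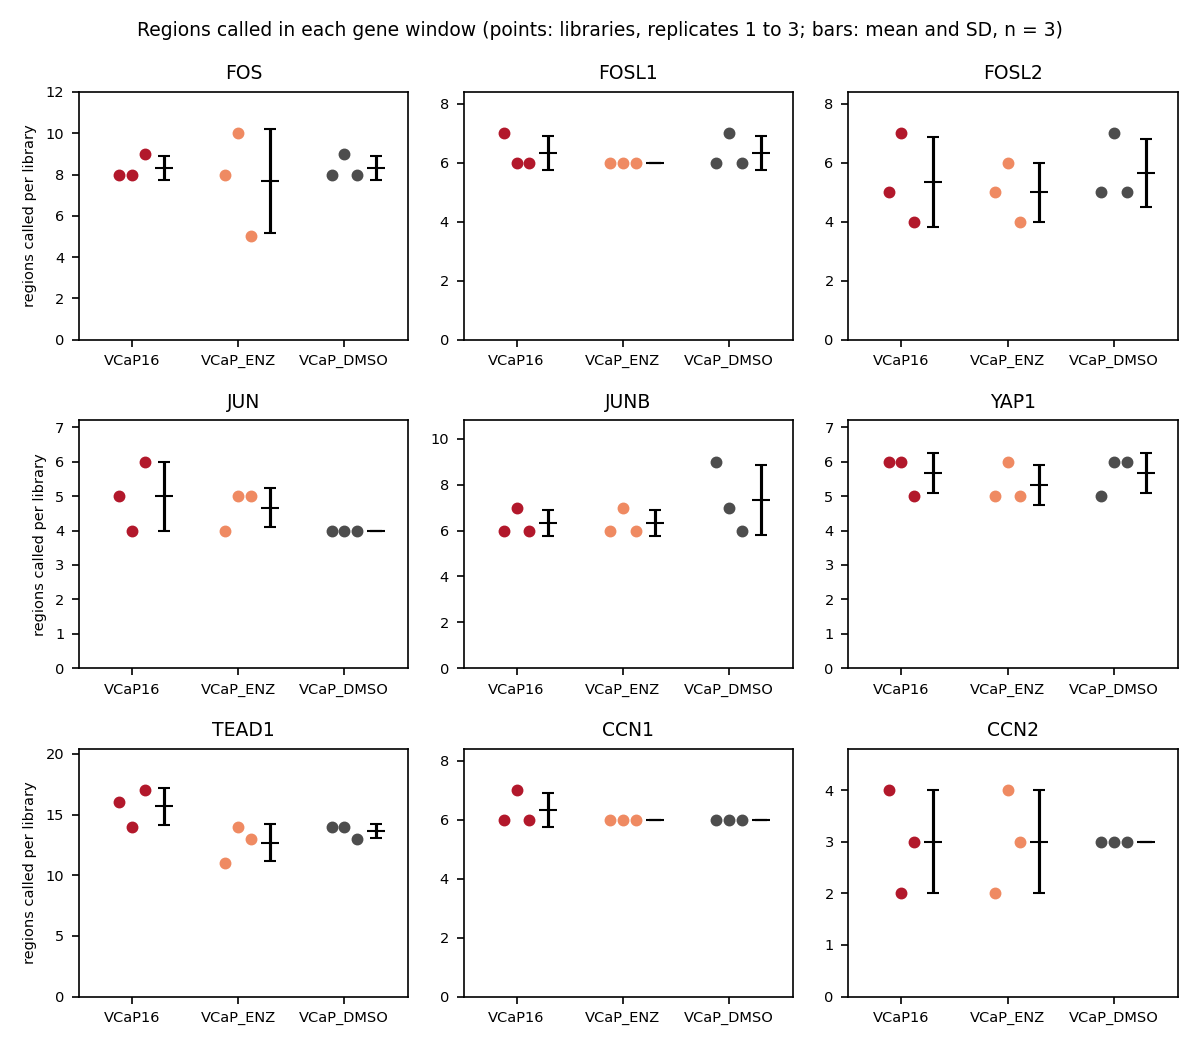
Regions called per library in each window (axis from 0), with a point per library and the mean and SD (n = 3) beside them. The TEAD1 panel has 14 to 17 regions in VCaP16, 11 to 14 in VCaP_ENZ and 13 to 14 in VCaP_DMSO.

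In covered length, VCaP16 against the 6 VCaP libraries was the only comparison that could give an exact p under 0.05, and TEAD1 was the only window with one. VCaP_ENZ had a lower mean than VCaP_DMSO in 9 of 9 windows, where 49.0% of 100 kb stretches were lower and 46.7% higher, and the exact p ran from 0.2 to 0.7. FOS had the largest gap in bases, at 4002 ± 1330.4 bp in VCaP_ENZ and 5495 ± 190.1 bp in VCaP_DMSO (SD, n = 3 each). In 0 of the 9 windows did every VCaP_ENZ library lie below every VCaP_DMSO library (4.36% of stretches), and in 0 above (4.33%). The lists also differ in length: peaks covered 26.4, 32.5 and 25.9 Mb in VCaP_ENZ and 30.8, 28.4 and 26.7 Mb in VCaP_DMSO. With the same number of best peaks taken from every list, VCaP_ENZ had the lower mean in each of the 9 windows. No share of stretches was computed with equal lists, so this count has no background. The means were then 4002 bp in VCaP_ENZ and 5421 bp in VCaP_DMSO for FOS, and 3294 and 3453 bp for JUN. VCaP_ENZ against VCaP_DMSO was not tested at that setting. Bases per Mb covered by the list were computed for each library, but these 2 groups were not tested against each other on them. With the full lists, VCaP16 had a higher mean than VCaP_ENZ in 9 of 9 windows, where 68.8% of stretches were higher and 29.7% lower. YAP1 was the only window of the 9 in which every VCaP16 library was above every VCaP_ENZ library (8.72% of stretches), and none showed the reverse (1.62%). Against VCaP_DMSO, VCaP16 had the higher mean in 5 windows and the lower in 4, where 66.8% of stretches were higher and 31.9% lower. TEAD1 was the only one of the 9 with every VCaP16 library above every VCaP_DMSO library (10.4% of stretches), and none showed the reverse (2.27%). Against the 6 VCaP libraries together VCaP16 had the higher mean in 8 windows and the lower in JUNB, where 69.5% of stretches were higher and 30.5% lower. Per Mb covered by the list, VCaP16 was higher in FOS, YAP1, CCN2 and TEAD1 and lower in FOSL1, FOSL2, JUN, JUNB and CCN1. In the 8 windows other than TEAD1, the exact p for VCaP16 against the 6 VCaP libraries, with the full lists and no scaling, was 0.25 or more for covered length and 0.333 or more for regions called. These comparisons share libraries, so their directions are not independent.

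Other genes of the 2 systems were counted in 16 further windows, set from general knowledge of hg19 gene positions and not from an annotation. They are the AP-1 relatives FOSB, JUND, ATF3, BATF and JDP2, the remaining TEAD genes TEAD2, TEAD3 and TEAD4, the YAP1 relative WWTR1, the Hippo regulators LATS1, LATS2, NF2, AMOTL2 and VGLL4, and the target genes ANKRD1 and AXL. They held 112 regions, 38 of them in all 9 libraries (33.9%). In these windows 2 regions (1.79%, against 1.63% of all regions) were in every VCaP16 and no VCaP_DMSO library. There were 6 (5.36%, against 1.13%) in every VCaP16 and no VCaP_ENZ library. Of those 6, 3 were also in every VCaP_DMSO library. The same 3 (2.68%) made up the regions in every VCaP_DMSO and no VCaP_ENZ library. The last share stands against 0.557% of all regions, and against 0 of the 86 members. Its regions were 2 in the JUND window, chr19:18371802-18374053 (2252 bp) and chr19:18374330-18376800 (2471 bp), and 1 in the TEAD2 window, chr19:49866336-49867207 (872 bp). JUND encodes the JUN protein that is less tied to acute stimulation than JUN. Peaks covered 2404, 3587 and 1809 bp of its window in VCaP_ENZ and 7020, 6835 and 4917 bp in VCaP_DMSO, with no overlap (two-sided exact permutation p = 0.1, the smallest that 3 against 3 allows). VCaP16 covered 4586, 6540 and 7245 bp there. Both JUND regions add their bases to this window, as the TEAD2 region does to its own, so covered length is not a second result. The JUND regions also lie side by side, 1 ending at 18374053 and the next starting at 18374330, and may not be separate sites. Alternative settings were run for the 9 windows and not for these 16. Every VCaP_DMSO library was above every VCaP_ENZ library in 3 of the 16 windows, JUND, ATF3 and TEAD2, against 4.36% of stretches. Every VCaP16 library was above every VCaP_ENZ library in 3 of 16, JUND, TEAD2 and AXL, against 8.72% of stretches. The reverse was seen in 0 of 16 for each. FOSB, a further FOS gene, had a VCaP16 pattern like that of TEAD1: chr19:45970951-45971836 (886 bp) was in 3 VCaP16 and in 0 of the 6 VCaP libraries, at a median position of 93.8%. It was the 1 such region of the 112 (0.893%, against 0.549% of all regions). The FOSB window had 6 regions called in each VCaP16 library, 5, 5 and 4 in VCaP_ENZ, and 4, 5 and 5 in VCaP_DMSO (exact permutation p = 0.0119 for VCaP16 against the 6 VCaP libraries). No share of stretches was computed for regions called. FOSB coverage overlapped, at 4319 ± 599 bp in VCaP16 and 3939 ± 561 bp in the 6 VCaP libraries (SD, exact permutation p = 0.393). In covered length that comparison gave exact p = 0.0238 for ANKRD1, at 1407 ± 545 bp in VCaP16 (SD, n = 3) and 767 ± 231 bp in the 6 VCaP libraries, and p = 0.0476 for TEAD2, at 883 ± 401 bp in VCaP16 and 340.2 ± 259.9 bp in the 6 VCaP libraries. These are the 3 p-values under 0.05 among 16 tests for each of 4 comparisons and 2 measures, unadjusted and not planned for these windows. Only the comparison of VCaP16 with the 6 VCaP libraries could give such a p. In covered length, 2 of 16 windows stands beside the 7.86% of stretches given above.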

How the data were processed

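ATAC-seq was measured in 9 libraries. Per the labels' protocols, cells were crosslinked with 1% formaldehyde for 10 min before Tn5 treatment; the same text describes a single-cell preparation, and the lists were treated as bulk. The authors deposited 1 peak list per library on hg19, with a score per peak; no source here says what kind of score. The submitters' processing notes list HOMER 3.12, MACS2 2.2.7.1 and BWA 0.7.15-r1140 with no role for any; read filtering, Tn5 shifting and depth are not given in the sources used here. A longer or deeper list calls more weak peaks, which bears on every count of calls.

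From the lists, peaks sharing at least 1 bp were merged (Python 3.11.15, numpy 2.4.6), and calls, covered bases and list positions were computed. Tests were two-sided exact permutation tests (84 splits for 3 against 6, smallest p 0.0119; 20 for 3 against 3, smallest p 0.1) and Fisher's exact test with Benjamini-Hochberg adjustment (scipy 1.17.1), and the steps were tested on simulated data. Named were the best-placed and the widest region of each window, those in 3 of 3 libraries of a group and 0 of 3 of another, and those with Fisher p under 0.05. The genes, windows and lists were chosen with earlier results of these data known, and the 100 kb stretches were added after seeing the data. Alternatives were a score of at least 5, equal lists, an overlap of 50%, scaling by list, wider windows, blocks and leaving out each library.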

Additional observations from a re-analysis of the deposited data

How the results depend on the processing

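Of 418 alternative values, 342 were labelled the same: on the same side of the threshold with no reversed sign, or within 1.5 times for counts. A reported difference of 0 had no sign to reverse. FOSL2 regions called, reported as 0, were thus labelled the same at 0.667 with a score of at least 5 and at -0.333 with equal lists. A test with p above 0.05 was labelled the same if p stayed above it and the sign did not reverse. The 342 therefore do not measure how stable the sizes of the differences were. The lists hold no read counts, so what depth does to the calls was not tested. With a score of at least 5, 73 members were left: 2 were in every VCaP16 and no VCaP_DMSO library (1.88% of all regions), 2 in every VCaP16 and no VCaP library (0.642%), 0 in every VCaP_ENZ and no VCaP_DMSO library (0.702%) and 1 the reverse (0.584%). With lists of equal length (79 members), the counts were 0 for VCaP16 against VCaP_DMSO (1.30% of all regions), VCaP_ENZ against VCaP_DMSO (0.649%), VCaP16 against VCaP_ENZ (0.965%) and VCaP16 against VCaP (0.450%). With an overlap of 50%, they were 0 for VCaP16 against VCaP_DMSO (1.85%), VCaP_ENZ against VCaP_DMSO (0.658%) and VCaP16 against VCaP (0.659%), and 1 for regions in every VCaP_DMSO and no VCaP_ENZ library (0.682%). With 2 of 3 libraries against none, they were, of 86 members, 3 for VCaP16 against VCaP_DMSO (5.5% of all regions) and 1 for the reverse (2.09%), and 2 for VCaP_ENZ against VCaP_DMSO (2.90%) and 1 for the reverse (2.39%). Leaving out each library in turn gave 1 to 3 for VCaP16 against VCaP_DMSO (0 to 1 for the reverse), 1 to 2 for VCaP_ENZ against VCaP_DMSO (0 to 3 for the reverse) and 1 to 2 for VCaP16 against VCaP. The counts of 3 were 3 of 84 members without VCaP16 replicate 2, where 3.34% of all regions had the pattern, and, for the reverse of VCaP_ENZ against VCaP_DMSO, 3 of 85 without VCaP_ENZ replicate 2 (1.45%). The counts of 2 were seen for VCaP16 against VCaP_DMSO without VCaP_DMSO replicate 1 (2.78%) or 3 (2.30%), for VCaP_ENZ against VCaP_DMSO without VCaP_ENZ replicate 1 (1.55%) or VCaP_DMSO replicate 1 (1.42%), and for VCaP16 against VCaP without VCaP_DMSO replicate 3 (0.650%).

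For TEAD1, VCaP16 minus the 6 VCaP libraries in regions called was 4.17 (exact permutation p = 0.0238) with a score of at least 5 and 3.17 (exact p = 0.0119) with an overlap of 50%. It was 1.67 (exact p = 0.25) with equal lists, 0.203 per 10000 peaks (exact p = 0.143), 2.50 in the widened window (exact p = 0.155), and from 1.83 to 3.33 with a library left out (exact p from 0.0357 to 0.214). In covered length it was 1636 bp (exact p = 0.0119) with a score of at least 5, 834 bp (exact p = 0.0476) with equal lists, 15.2 bp per Mb (exact p = 0.179), 1214 bp (exact p = 0.0952) in the widened window, and from 629 to 1355 bp with a library left out, where exact p ran from 0.0179 to 0.214. The widened YAP1 window gave 1239 bp (exact p = 0.0238). No share of stretches was computed for any of these alternative settings. The direction of VCaP16 minus the VCaP libraries turned in windows with no call. In covered length JUN was -25.3 bp and JUNB 89.0 bp with a score of at least 5, JUN -36.3 bp with equal lists, and FOSL1 -8.90, FOSL2 -0.964, JUN -9.39 and CCN1 -3.98 bp per Mb. JUNB was 961 bp in the widened window. In regions called FOS was -0.500 with equal lists, FOS -0.0638, FOSL1 -0.0636, YAP1 -0.0483 and CCN1 -0.0326 per 10000 peaks, and JUNB 1.00 and CCN1 -0.167 in widened windows. With a library left out, regions called ran from -0.267 to 0.733 for FOS and from -0.167 to 0.333 for FOSL1, and covered length from -87.2 to 316 bp for FOSL2, from -162 to 273 bp for JUN and from -233 to 112 bp for JUNB. The cause of these shifts was not tested. Labels number the replicates alike in each group. Deviations of same-numbered libraries correlated by -0.00478 to 0.0102 (9 pairs), and those of other-numbered libraries by -0.0131 to 0.00690 (18 pairs). No pairing by number was visible in these deviations, which does not settle whether same-numbered libraries were prepared together. Permuting within replicate numbers, as a block, gave exact p = 0.111 for TEAD1 regions called and 0.0741 for its covered length, an unchanged difference of 1039.8 bp.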
